A study of Caenorhabditis elegans with 24 samples.

Results

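The genes described here are the 8 core genes of the insulin to DAF-16 signalling pathway of *C. elegans*: *daf-2*, *age-1*, *pdk-1*, *akt-1*, *akt-2*, *sgk-1*, *daf-18* and *daf-16*. They were taken by name from a table of 20191 protein-coding genes. All 8 were in it, and all 8 were among the 12771 genes that passed the filter on low values and were tested. The values are RPKM (read numbers divided by exon length and by library size), which put genes and libraries on a common scale. The main fit scaled the libraries no further, and other scalings moved some differences between the strains.

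RNA came from pools of whole worms collected on day 3, which had been fed from eggs with HT115 bacteria carrying the empty vector pL4440 at 20 °C. Wild-type animals (wt, strain NV48) were left untreated (5 libraries) or were given 100 µM quercetin, a flavonoid (5 libraries), or 100 µM lutein, a carotenoid (4 libraries). *abl-1* mutants (*abl-1* KO, strain NV50, allele *ok171*) were left untreated (5 libraries) or were given 100 µM quercetin (5 libraries). *abl-1* encodes the worm's Abl tyrosine kinase. All groups, the untreated included, received the solvent, 0.5% DMSO with 0.005% Tween 80. Both strains were isolated from a cross of XR1 with GRU102, a strain that carries a transgene for human amyloid beta in neurons, and the strain list gives NV48 as wild type and NV50 without that transgene. Each genotype was 1 strain, so *abl-1* and any other difference between NV48 and NV50 cannot be told apart. The RNA-Seq methods differ from this: they name NV48 as the amyloid beta strain and NV51, which is listed with both the transgene and *abl-1(ok171)*, as the *abl-1* KO. The labels, which name NV48 and NV50, were followed, and whether the transgene was present was not tested.

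In this pathway, insulin-like peptides bind the receptor DAF-2, which activates the phosphatidylinositol 3-kinase AGE-1. The lipid that AGE-1 makes brings PDK-1 to the membrane, where it activates the kinases AKT-1 and AKT-2, and the lipid phosphatase DAF-18 removes the lipid again. The AKT kinases phosphorylate the FOXO transcription factor DAF-16 and keep it out of the nucleus, and SGK-1 is a related kinase of the same branch. The pathway is best known in the worm for its part in lifespan, stress resistance and dauer formation, and it is run largely by phosphorylation and location of proteins, which levels of mRNA do not show. Isoforms were not separated in these values, and in whole animals fewer cells of a type and less RNA per cell cannot be told apart.

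The depth was estimated at 27.3 to 45.2 M mapped reads per library. *abl-1* itself stood between 6.85 and 7.77 RPKM in the 14 wt libraries and between 1.71 and 2.14 RPKM in the 10 *abl-1* KO libraries, so every library followed the genotype of its label. The treatments have no such check. Markers of oocytes and early embryos, intestine, body wall muscle and neurons were above 0 in all 24 libraries, as were 7 of 9 of hypodermis and cuticle. Markers of sperm differed most. Their 35 levels summed to over 250 RPKM in 5 libraries (wt quercetin replicate 4, *abl-1* KO untreated replicate 2 and *abl-1* KO quercetin replicates 2, 3 and 5, from 292 to 660 RPKM) and to between 7.19 and 178 RPKM in the other 19, with 16 of the 35 markers at 0 in at least 1 library. The libraries were also divided into 2 sets that the labels do not name. This split was found for 19 genes, against 18 for the next, which divides the libraries otherwise. The first held replicates 1 and 2 of every group and wt lutein replicate 3 (11 libraries), and the second held the other 13. The levels of 188 of 12771 genes (1.47%) did not overlap between the sets. The sets were found in the same data, so this share is partly a result of how they were chosen.

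The 8 genes differed by 63.5 times between the highest and the lowest mean level. Over the 24 libraries *daf-18* came first with 196 ± 6.86 RPKM (SD, n = 24), followed by *akt-1* with 90.3 ± 3.69, *age-1* with 30.2 ± 1.07, *daf-16* with 28.4 ± 1.36 and *daf-2* with 18.5 ± 1.13 RPKM. The kinases *sgk-1* (8.64 ± 0.976 RPKM), *pdk-1* (7.87 ± 0.668 RPKM) and *akt-2* (3.09 ± 0.287 RPKM) closed the order. The phosphatase that opposes the pathway was therefore listed at a higher level than each of the kinases it opposes, above 95.8% of all genes tested. Most neighbours in this order were apart in every library. Only *age-1* and *daf-16*, and *sgk-1* and *pdk-1*, had ranges that overlapped, with *age-1* above *daf-16* in 22 of 24 libraries and *sgk-1* above *pdk-1* in 17 of 24.

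The levels were stable from library to library. The coefficient of variation over all 24 libraries ran from 3.50% for *daf-18* to 11.3% for *sgk-1*. Within groups, the SD of log2(RPKM + 0.5) ran from 0.051 for *age-1*, below which lay only 8.11% of the tested genes, to 0.115 for *pdk-1*, and all 8 stood under the median of 0.128 over the tested genes. The reads behind these levels were estimated from the depth and the exon length. *akt-2* rested on about 243 reads (201 to 341), *sgk-1* on 473 and *pdk-1* on 640, whereas *daf-18* rested on 21809 (medians over libraries). Exons of *age-1*, *akt-1* and *pdk-1* overlap those of protein-coding genes on the other strand (*B0334.10*, *rop-1* and *F21E9.2*), and an exon of *daf-16* overlaps the non-coding *H36N01.5*. The kit marks strand, but the strand setting of the counting is not given in the sources used here, so reads of such partners may be shared.

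**Figure D1:**
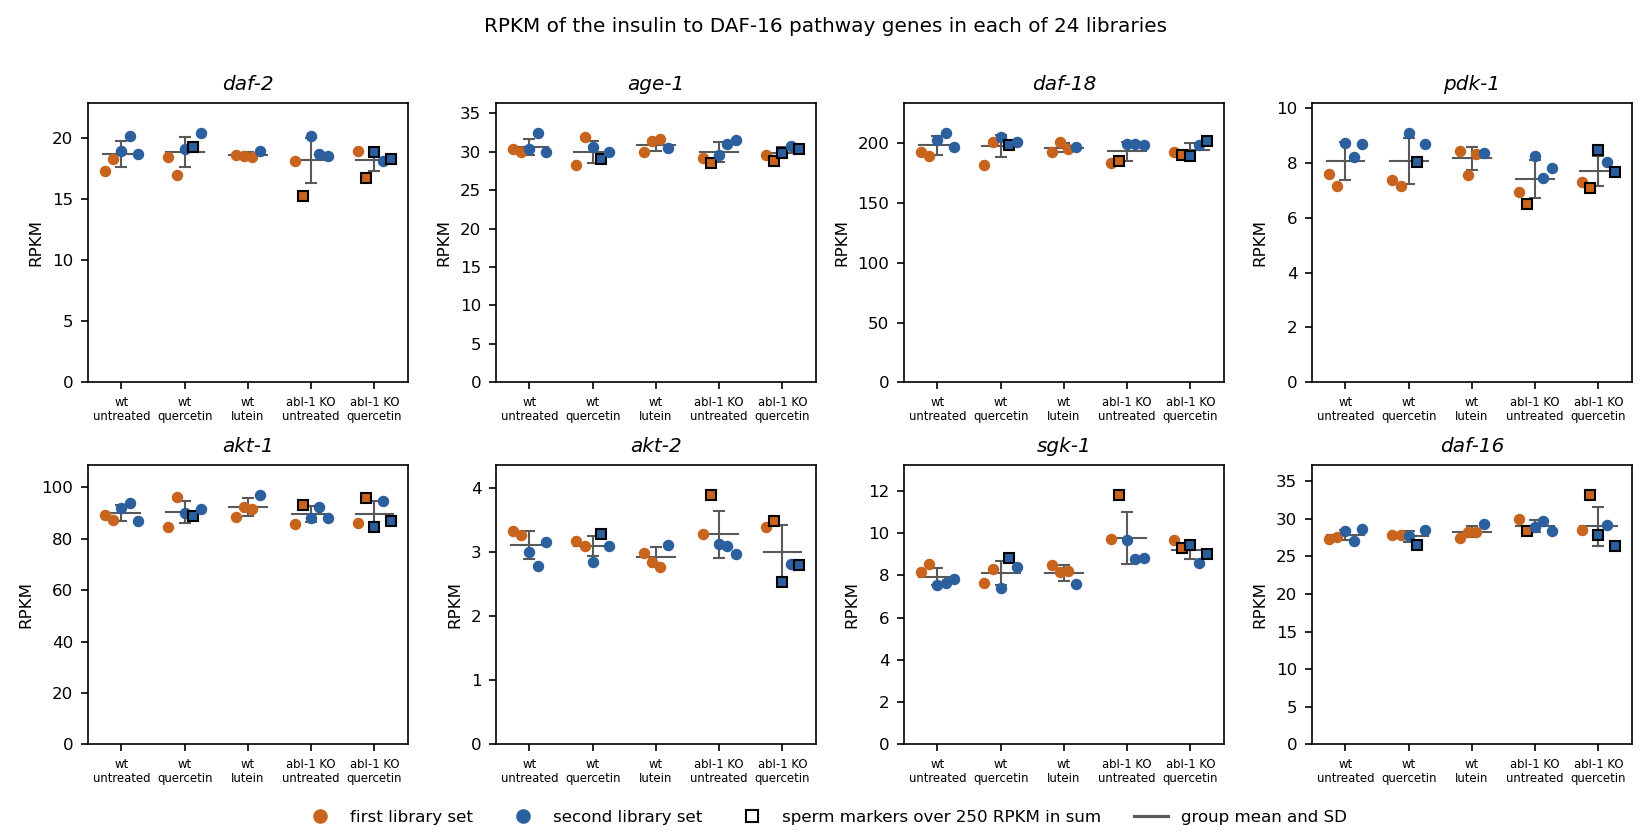
RPKM of the 8 genes in each library, by group, on axes that start at 0. Bars are the group mean and SD, colours the 2 library sets, and squares the 5 libraries whose sperm markers sum to over 250 RPKM. Only *sgk-1* shows untreated *abl-1* KO libraries (8.77 to 11.8 RPKM) that are all above the untreated wt libraries (7.55 to 8.56 RPKM).

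*daf-2* (WBGene00000898, chromosome III, 2994514 to 3040846 on WBcel235) encodes the insulin and IGF receptor. Its level was 17.2, 18.2, 18.9, 20.1 and 18.7 RPKM in replicates 1 to 5 of untreated wt and 18.4, 17.0, 19.1, 19.3 and 20.4 RPKM in wt on quercetin. The 4 lutein libraries lay between 18.5 and 18.9 RPKM. In *abl-1* KO it was 18.1, 15.2, 20.2, 18.7 and 18.5 RPKM untreated and 18.9, 16.7, 18.8, 18.1 and 18.3 RPKM on quercetin. The groups overlapped in every comparison, and the lowest level of all, 15.2 RPKM, was in the *abl-1* KO library with the most sperm marker RNA. Quercetin left the mean of wt at 18.8 against 18.6 RPKM, a difference of 0.01 on the log2 scale (SE 0.06). *abl-1* KO stood 0.04 below wt without treatment and 0.05 below it under quercetin, on the log2 scale (SE 0.06 each).

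*age-1* (WBGene00000090, chromosome II, 11519328 to 11527054) encodes the catalytic subunit of the phosphatidylinositol 3-kinase, and *daf-18* (WBGene00000913, chromosome IV, 420011 to 425177) the phosphatase that acts against it. *age-1* ranged from 29.9 to 32.5 RPKM in untreated wt, from 28.3 to 31.9 on quercetin and from 29.9 to 31.7 on lutein. In *abl-1* KO it ranged from 28.5 to 31.5 RPKM untreated and from 28.8 to 30.7 RPKM on quercetin. The ranges lay on top of each other in all groups. *daf-18* ranged from 190 to 209 RPKM in untreated wt, from 182 to 205 on quercetin, from 193 to 201 on lutein, from 183 to 199 in untreated *abl-1* KO and from 190 to 202 RPKM in *abl-1* KO on quercetin. These overlapped as well, and no difference between groups of either gene went beyond 0.05 in size on the log2 scale (SE 0.03 to 0.05). The ratio of *daf-18* to *age-1* was nearly the same in all libraries, from 6.17 to 6.83 with a median of 6.45.

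*pdk-1* (WBGene00003965, chromosome X, 1321344 to 1327986) encodes the kinase that activates the AKT and SGK kinases. It stood at 7.60, 7.16, 8.71, 8.21 and 8.67 RPKM in untreated wt and at 6.94, 6.52, 8.26, 7.43 and 7.83 RPKM in untreated *abl-1* KO. On quercetin it stood at 7.39, 7.16, 9.10, 8.02 and 8.68 RPKM in wt and at 7.29, 7.07, 8.47, 8.02 and 7.67 RPKM in *abl-1* KO. The 4 lutein libraries lay between 7.54 and 8.44 RPKM. In each of these pairs of groups the ranges overlapped, and replicates 1 and 2 were below replicates 3 to 5 in each of the 4 groups of 5. The mean of *abl-1* KO was 0.12 lower than that of wt without treatment on the log2 scale (7.40 ± 0.692 against 8.07 ± 0.681 RPKM, SD, n = 5 each), a difference that did not pass (SE 0.07, exact permutation p = 0.167). *abl-1* KO was below wt in 5 of 5 same-numbered pairs of untreated libraries. The difference did not pass in limma with the replicate number as a block either (SE 0.04, unadjusted p = 0.00902, adjusted p = 0.112), nor with the library set as a term (unadjusted p = 0.0194, adjusted p = 0.186). Under quercetin it was 0.06 lower (SE 0.07).

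*akt-1* (WBGene00000102, chromosome V, 10248905 to 10252845) and *akt-2* (WBGene00000103, chromosome X, 14147700 to 14152070) encode the 2 AKT kinases. *akt-1* had group means between 89.6 and 92.4 RPKM, with ranges of 87.1 to 94.0 in untreated wt, 84.7 to 96.2 on quercetin, 88.4 to 97.1 on lutein, 85.9 to 93.3 in untreated *abl-1* KO and 84.7 to 95.9 RPKM in *abl-1* KO on quercetin. Its level was thus alike in all groups, with no difference beyond 0.04 in size on the log2 scale (SE 0.04 to 0.05). *akt-2* was 3.32, 3.26, 3.00, 2.78 and 3.16 RPKM in untreated wt, 3.17, 3.10, 2.85, 3.28 and 3.10 on quercetin and 2.98, 2.85, 2.76 and 3.12 RPKM on lutein. In *abl-1* KO it was 3.29, 3.89, 3.13, 3.09 and 2.97 RPKM untreated and 3.39, 3.48, 2.53, 2.81 and 2.79 RPKM on quercetin. Both the highest and the lowest value of *akt-2* thus came from *abl-1* KO, and the groups overlapped in every comparison. *akt-2* differed most between untreated and quercetin-fed *abl-1* KO, where quercetin stood 0.11 lower on the log2 scale (SE 0.08, exact permutation p = 0.286). The message of *akt-1* was 24.0 to 33.8 times that of *akt-2*, with a median of 29.7.

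*sgk-1* (WBGene00004789, chromosome X, 16254842 to 16262122) encodes the SGK kinase and was the gene that differed most between the strains. It stood at 8.15, 8.56, 7.55, 7.63 and 7.82 RPKM in untreated wt and at 9.74, 11.8, 9.67, 8.77 and 8.82 RPKM in untreated *abl-1* KO. All 5 *abl-1* KO libraries were above all 5 wt libraries. Such a separation, in either direction, was found for 2.09% of the tested genes in this comparison. On quercetin, *sgk-1* stood at 7.64, 8.28, 7.40, 8.81 and 8.41 RPKM in wt and at 9.65, 9.29, 9.41, 8.56 and 9.03 RPKM in *abl-1* KO, and here replicate 4 of each strain overlapped with the other group. The lutein libraries, at 8.47, 8.17, 8.22 and 7.60 RPKM, lay in the range of the other wt libraries.

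The untreated *abl-1* KO mean of *sgk-1* was 9.76 ± 1.23 RPKM against 7.94 ± 0.413 RPKM in wt (SD, n = 5 each). On the log2(RPKM + 0.5) scale it was 0.27 higher (SE 0.07, 95% interval 0.14 to 0.41), or 21.0% higher in RPKM + 0.5. In limma, fitted over all 12771 genes with Benjamini-Hochberg adjustment, this difference did not pass the threshold of 0.05 (adjusted p = 0.064, unadjusted p = 0.00036, rank 72 of the tested genes by p). The exact two-sided permutation test of this gene alone gave p = 0.00794, the smallest that 5 against 5 libraries can give. Same-numbered untreated libraries of the strains deviated together from their group means, and with the replicate number as a block *sgk-1* passed (SE 0.06, limma adjusted p = 0.0163), in a fit that called 3.65% of the tested genes. Under quercetin the means were 9.19 ± 0.417 and 8.11 ± 0.578 RPKM, 0.17 higher in *abl-1* KO on the log2 scale (SE 0.07, limma adjusted p = 0.46, exact permutation p = 0.0159). Quercetin's effect on *sgk-1* did not differ detectably between the strains (difference of -0.10 on the log2 scale, SE 0.09).

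The library with the highest *sgk-1*, *abl-1* KO untreated replicate 2, was also the one with the highest sum of sperm markers (660 RPKM). It had the highest *akt-2* (3.89 RPKM), the lowest *daf-2* (15.2 RPKM) and the lowest *pdk-1* (6.52 RPKM) of all libraries, and its neuron markers summed to 205 RPKM, near the top of a range from 176 to 209. Without this library, *sgk-1* was 0.21 higher in untreated *abl-1* KO on the log2 scale (SE 0.06, limma adjusted p = 0.18), and without all 5 libraries with over 250 RPKM of sperm markers the difference was also 0.21 (adjusted p = 0.24), with *abl-1* KO above wt in both. Within the first library set the difference of the means was 0.34 (2 against 2 libraries), within the second it was 0.23 (3 against 3). With the set as a term in the fit, an alternative chosen after seeing the data, *sgk-1* passed (adjusted p = 0.0128), in a fit that called 2.67% of the tested genes. With the libraries scaled by medians of ratios or by trimmed means the difference was 0.24 in each (limma adjusted p = 0.084 and 0.080). The adjusted p of this difference ranged from 0.0128 to 0.33 over 38 alternatives, 4 of which were under the threshold. *sgk-1* and *abl-1* both lie on the X chromosome, 5.63 Mb apart, and variation linked to *abl-1* in NV50 and the loss of *abl-1* cannot be told apart.

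*daf-16* (WBGene00000912, chromosome I, 10750498 to 10776703) encodes the FOXO transcription factor at the end of the pathway. It was 27.4, 27.6, 28.3, 27.1 and 28.7 RPKM in untreated wt, 27.9, 27.9, 27.7, 26.5 and 28.5 on quercetin and 27.4, 28.2, 28.3 and 29.3 RPKM on lutein. In *abl-1* KO it was 29.9, 28.3, 28.9, 29.7 and 28.3 RPKM untreated and 28.5, 33.2, 27.8, 29.1 and 26.3 RPKM on quercetin. Untreated *abl-1* KO lay towards the upper end of untreated wt and overlapped with it. The means were 29.0 ± 0.752 and 27.8 ± 0.663 RPKM (SD, n = 5 each), 0.06 higher on the log2 scale (SE 0.04, unadjusted limma p = 0.156, exact permutation p = 0.0397 before any adjustment). Under quercetin the difference was 0.06 too (SE 0.04), and there the single library at 33.2 RPKM, *abl-1* KO quercetin replicate 2, carried most of it: the others lay between 26.3 and 29.1 RPKM, and without it the difference was 0.01 (SE 0.03). This library also had 473 RPKM of sperm markers, and the part of sperm RNA in its *daf-16* level was not tested. The ratio of *daf-16* to *daf-2* was 1.35 to 1.99 over all libraries, with a median of 1.52.

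Whether quercetin or lutein changes the message of the pathway was asked in 4 comparisons. None of the 8 genes passed in any of them, where limma called 0.0% of the 12771 tested genes for quercetin in wt, 0.0% for lutein in wt, 0.0% for quercetin against lutein and 0.0% for quercetin in *abl-1* KO. At an unadjusted p of at most 0.05 the counts were 173, 209, 179 and 233 of all genes, and 0 of the 8 in each. These were 1.35%, 1.64%, 1.40% and 1.82% of the tested genes, fewer than a threshold of 0.05 gives by chance alone. The fit was thus conservative here, and a lack of calls says little by itself. With the replicate number as a block, 0 of the tested genes passed in any comparison within wt. For quercetin in wt the 8 differences ran from -0.03 to 0.03 on the log2 scale (3 of 8 above 0, median -0.002, against a median of 0.005 over all tested genes). For lutein they ran from -0.07 to 0.04, and for quercetin in *abl-1* KO from -0.11 to 0.06. The 95% intervals of the fit without a block give what that fit could have missed, here as percentages of RPKM + 0.5. In percent of RPKM alone the same bounds are wider, most of all for the lowest gene, *akt-2*. For quercetin in wt, the widest reached from 10.7% lower (*akt-2*) to 11.9% higher (*sgk-1*). For lutein they reached from 15.5% lower (*akt-2*) to 13.2% higher (*pdk-1*), and for quercetin in *abl-1* KO from 17.2% lower (*akt-2*) to 15.5% higher (*pdk-1*). Quercetin and lutein, a flavonoid and a carotenoid given at the same concentration, differed by -0.04 to 0.07 on the log2 scale, with intervals from 11.7% lower (*pdk-1*) to 18.3% higher (*akt-2*). The quercetin and lutein comparisons in wt share their untreated libraries.

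**Figure D2:**
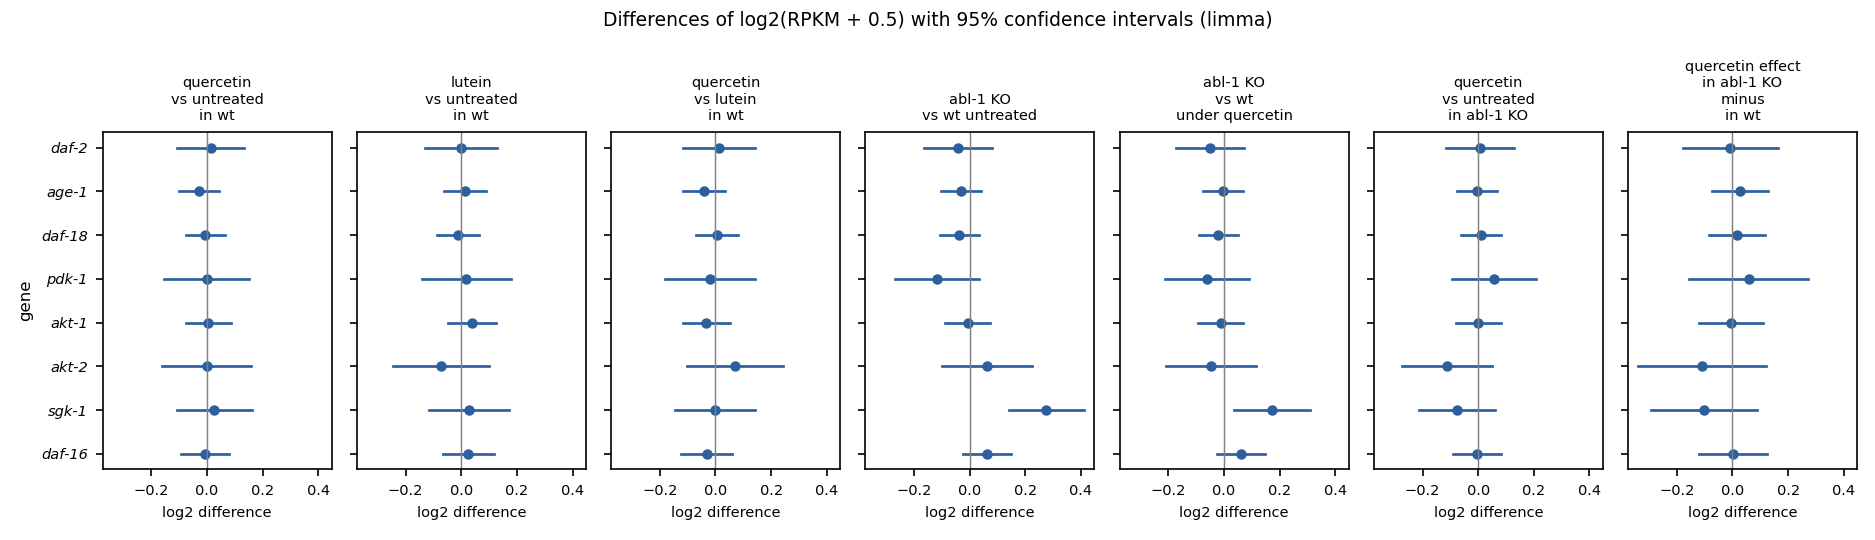
Difference of log2(RPKM + 0.5) of the 8 genes in each of the 7 comparisons (points), with 95% confidence intervals of the limma fit (lines). The *sgk-1* interval lies above 0 for *abl-1* KO against wt, both untreated (0.14 to 0.41) and under quercetin (0.04 to 0.31), and all other intervals include 0.

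Between the strains, limma called 0.478% of the tested genes (61 of 12771) without treatment and 0.485% (62 of 12771) under quercetin, and 0 of the 8 pathway genes in either. With the replicate number as a block, 466 genes were called without treatment (346 higher and 120 lower in *abl-1* KO), 1 of the 8, *sgk-1*, among them. Of the 8, *sgk-1* alone was at an unadjusted p no higher than 0.05, in both, beside 1412 and 1045 of all genes. Of the 8, 3 were above wt in untreated *abl-1* KO and 2 under quercetin, with medians of -0.02 each on the log2 scale against 0.03 and 0.02 over all tested genes. Only *sgk-1* had untreated groups that did not overlap, and none of the 8 did under quercetin, where 1.68% of the tested genes did. When quercetin's effect was compared between both strains, 0.0% of the tested genes were called and 0 of the 8, with differences from -0.11 (*akt-2*) to 0.06 (*pdk-1*) on the log2 scale, and 203 genes, none of the 8, at an unadjusted p of at most 0.05.

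The differences between the library sets were as large as most of those between the groups. *pdk-1* ranged from 6.52 to 8.44 RPKM in the first set (median 7.29) and from 7.43 to 9.10 RPKM in the second (median 8.26), and the second set was higher in all 5 groups, by 0.17 on average on the log2 scale. *daf-2* was higher in the second set in 5 of 5 groups (0.11 on average), and so was *daf-18* (0.06). *akt-2* and *sgk-1* were higher in the first set in 4 of 5 groups (-0.11 and -0.10 for the second against the first). Markers of body wall muscle summed to 1139 to 1473 RPKM in the first set (median 1308) and to 1006 to 1241 RPKM in the second (median 1120). Those of hypodermis and cuticle summed to 5143 to 6662 RPKM (median 5915) and to 3997 to 5626 RPKM (median 4820). The part of these tissues in the levels of the 8 genes was not tested. These values describe the sets and carry no test, since the sets were found in the same data. The lutein group held 3 libraries of the first set and 1 of the second, whereas the others held 2 and 3. With the set as a term, no member passed in the lutein comparison either, and its differences ran from -0.12 to 0.08 on the log2 scale.

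**Figure D3:**
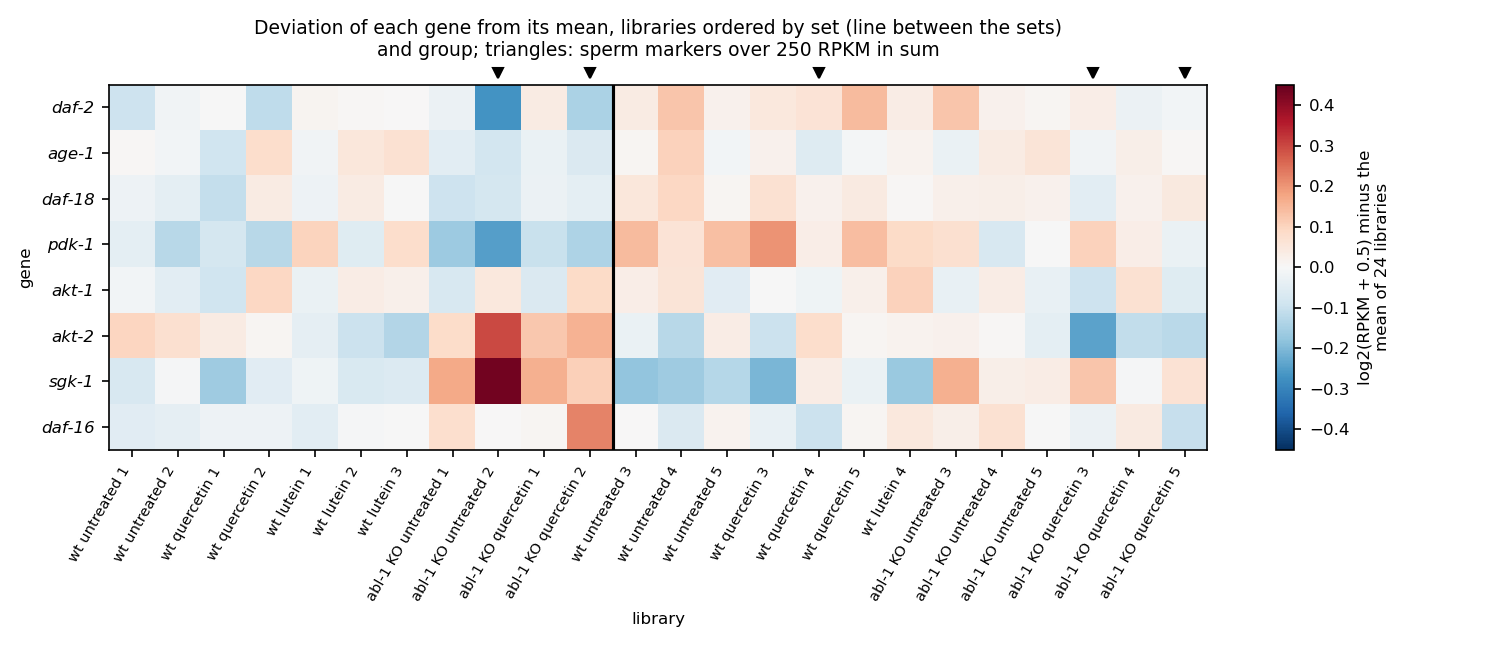
Deviation of log2(RPKM + 0.5) of each gene from its mean over the 24 libraries (colour), with libraries ordered by set and group. Triangles mark the 5 libraries with over 250 RPKM of sperm markers. *pdk-1* and *daf-2* are mostly blue left of the line and red right of it, and *sgk-1* is red in most *abl-1* KO libraries of both sets.

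How far the pathway genes went together over the libraries was described by Pearson's r of log2(RPKM + 0.5) over the 24 libraries, which share groups, sets and depth. Over the 28 pairs r ran from -0.64 (*pdk-1* and *akt-2*) to 0.73 (*age-1* and *daf-18*), with a median of -0.10. *age-1* and *daf-18*, the kinase and the phosphatase of the same lipid, kept this likeness once group means were removed (0.75) and within each set (0.81 and 0.64). This pair was named because it was the highest of the 28. *age-1* and *akt-2* kept a negative r (-0.62 over all libraries, -0.55 and -0.65 within the sets). The r of *pdk-1* and *akt-2* was -0.34 once group and set means were removed. That of *daf-2* and *pdk-1* was 0.71 over all libraries and 0.55 and 0.27 within the sets, and 0.29 once group and set means were removed. The 2 genes closest to each pathway gene were taken from 10692 genes with a mean of at least 1 RPKM. None of them was another pathway gene, which says little, as pathway genes are few among so many. The closest 2 were *Y92H12BR.7* (0.91) and *xpc-1* (0.90) for *daf-2*, *tag-72* (0.86) and *C06G4.1* (0.84) for *age-1*, and *rfc-4* (0.89) and *F17A9.2* (0.88) for *daf-18*. For *pdk-1* they were *pqn-59* (0.90) and *W05H9.4* (0.88), for *akt-1* *sel-5* (0.93) and *ubc-25* (0.92), and for *akt-2* *F53F8.4* (0.81) and *flp-13* (0.79). For *sgk-1* they were *catp-7* (0.90) and *lin-1* (0.87), and for *daf-16* *lsy-22* (0.84) and *fzr-1* (0.79). These are the highest of many values of r.

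Around the core lie partners of the receptor and regulators of the kinases and of DAF-16. Of a list of 25 such genes, 21 passed the filter and 0 passed the limma test in any of the 7 comparisons. At an unadjusted p of at most 0.05 was 1 of them in untreated *abl-1* KO against wt, where 11.1% of all tested genes were, and 0 in the others. *aap-1*, the regulatory subunit that pairs with AGE-1, had group means from 47.5 to 48.8 RPKM. *ist-1*, the insulin receptor substrate homolog, lay between 1.04 and 1.92 RPKM, and *pptr-1*, a phosphatase subunit that acts on AKT-1, between 28.0 and 35.0 RPKM in all libraries. The differences of these genes between *abl-1* KO and wt were 0.03, -0.04 and 0.03 on the log2 scale without treatment and 0.01, 0.16 and -0.01 under quercetin, and none passed. The genes *eak-3*, *eak-4*, *eak-6* and *sdf-9* were too low to be tested.

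The message of genes that DAF-16 switches on can be read as an output of the pathway. Of 26 such genes, 24 were tested, and 1, *lea-1*, passed in *abl-1* KO against wt without treatment and again under quercetin. Of all tested genes, 0.478% and 0.485% passed in these comparisons. No other comparison had a called gene. *lea-1* (chromosome V, 10011923 to 10028168), which encodes a protein of the late embryogenesis abundant family known from desiccation tolerance, was 45.2, 42.9, 44.3, 45.6 and 45.2 RPKM in untreated wt and 40.5, 38.7, 40.8, 39.0 and 39.3 RPKM in untreated *abl-1* KO. Under quercetin it was 44.5, 42.8, 44.2, 46.0 and 45.5 RPKM in wt and 40.1, 38.9, 40.5, 41.0 and 38.3 RPKM in *abl-1* KO. The strains did not overlap in either condition, and *abl-1* KO was lower. Of all tested genes, 2.09% did not overlap without treatment and 1.68% under quercetin. *lea-1* fell by 0.17 on the log2 scale (SE 0.03, limma adjusted p = 0.00152) and, under quercetin, by 0.16 (SE 0.03, adjusted p = 0.00207). The call held under 37 and 34 of 38 alternatives, with adjusted p from 0.0003 to 0.30 and from 0.00042 to 0.51. It was lost in both conditions when only the first library set (2 against 2) was used, and under quercetin also in a fit of the compared libraries alone, within the second set and without the 5 libraries rich in sperm markers, where the difference was -0.12.

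The genes most used as readouts of DAF-16 did not pass. *sod-3*, a mitochondrial superoxide dismutase, lay between 2.07 and 3.87 RPKM in all libraries, with *abl-1* KO at -0.05 against wt on the log2 scale without treatment (SE 0.14) and quercetin at 0.01 against untreated wt (SE 0.14). Within the library sets the strain difference of *sod-3* was 0.33 in the first and -0.31 in the second. *mtl-1*, a metallothionein, lay between 0.87 and 4.33 RPKM, with lutein at -0.54 against untreated wt on the log2 scale (SE 0.31), of which the differences within the sets were -0.26 (3 against 2 libraries) and -0.18 (1 against 3). Under quercetin, *mtl-1* was at -0.62 in *abl-1* KO against wt (SE 0.29, limma adjusted p = 0.60), and it was called in 3 of 37 alternatives. *dod-3* stood at 0.14 for quercetin in wt (SE 0.22) and 0.30 for untreated *abl-1* KO (SE 0.22) on the log2 scale. It reached 23.8 RPKM in *abl-1* KO untreated replicate 2, the library richest in sperm markers, against 6.94 to 9.68 RPKM in the other 4. *hsp-12.6*, a small heat shock protein, was low throughout, from 0.36 to 1.57 RPKM. Its untreated groups did not overlap (1.03 to 1.56 RPKM in *abl-1* KO, 0.42 to 0.94 RPKM in wt), as for 2.09% of the tested genes. The difference of 0.50 on the log2 scale did not pass (SE 0.19, limma adjusted p = 0.34). These levels of *hsp-12.6* rest on few reads, an estimated median of 27 per library (9 to 43).

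As a group, the activated targets had medians from -0.10 to 0.06 on the log2 scale over the 7 comparisons. In wt on quercetin 19 of the 24 were above untreated, with a median of 0.04 on the log2 scale against 0.005 over all tested genes, 0 called and 0 at an unadjusted p of at most 0.05. On lutein 8 of 24 were above (median -0.03), and in *abl-1* KO on quercetin 8 of 24 (median -0.05). In untreated *abl-1* KO 14 of 24 were above wt (median 0.05) and under quercetin 8 of 24 (median -0.10). The difference of quercetin's effects, *abl-1* KO minus wt, was above 0 for 6 of 24 and below it for 18. Its median was -0.095 against -0.008 over all tested genes, with 0 called. This difference uses the same libraries as the other comparisons. At an unadjusted p of at most 0.05 were 8 of the 24 in untreated *abl-1* KO against wt and 7 of 24 under quercetin, where 11.1% and 8.18% of all tested genes were. The counts were 2 on lutein, 1 for quercetin against lutein and 0 for quercetin in *abl-1* KO, beside 1.64%, 1.40% and 1.82% of all tested genes. For the difference of quercetin's effects the count was 1, beside 1.59%. The spread within the list was wider than any of these medians. *lys-7*, a lysozyme gene, was at 1.01 (untreated) and 0.98 (quercetin) on the log2 scale in *abl-1* KO against wt (SE 0.42 each), and *fat-5*, a fatty acid desaturase gene, at -0.66 and -0.61 (SE 0.27 each). *hsp-16.48* was at 0.65 for quercetin in wt (SE 0.38) and at -0.51 for quercetin in *abl-1* KO, a difference of -1.16. It has near-identical copies in the genome, so its value is uncertain. None of these 3, chosen after their values were seen, passed in limma without a block. With the replicate number as a block, 7 of the 24 passed in untreated *abl-1* KO against wt, beside 3.65% of all tested genes. Of the 7, 3 were higher and 4 lower, among them *lys-7* (limma adjusted p = 0.0091) and *fat-5* (limma adjusted p = 0.0034). Under quercetin 7 of the 24 passed with the block, 1 higher and 6 lower, beside 252 of 12771 tested genes. In the fit with the library set as a term, 6 of the 24 passed in at least 1 comparison, against 1 without it. That fit called 2.67% of the tested genes between the untreated strains and 1.75% under quercetin.

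**Figure D4:**
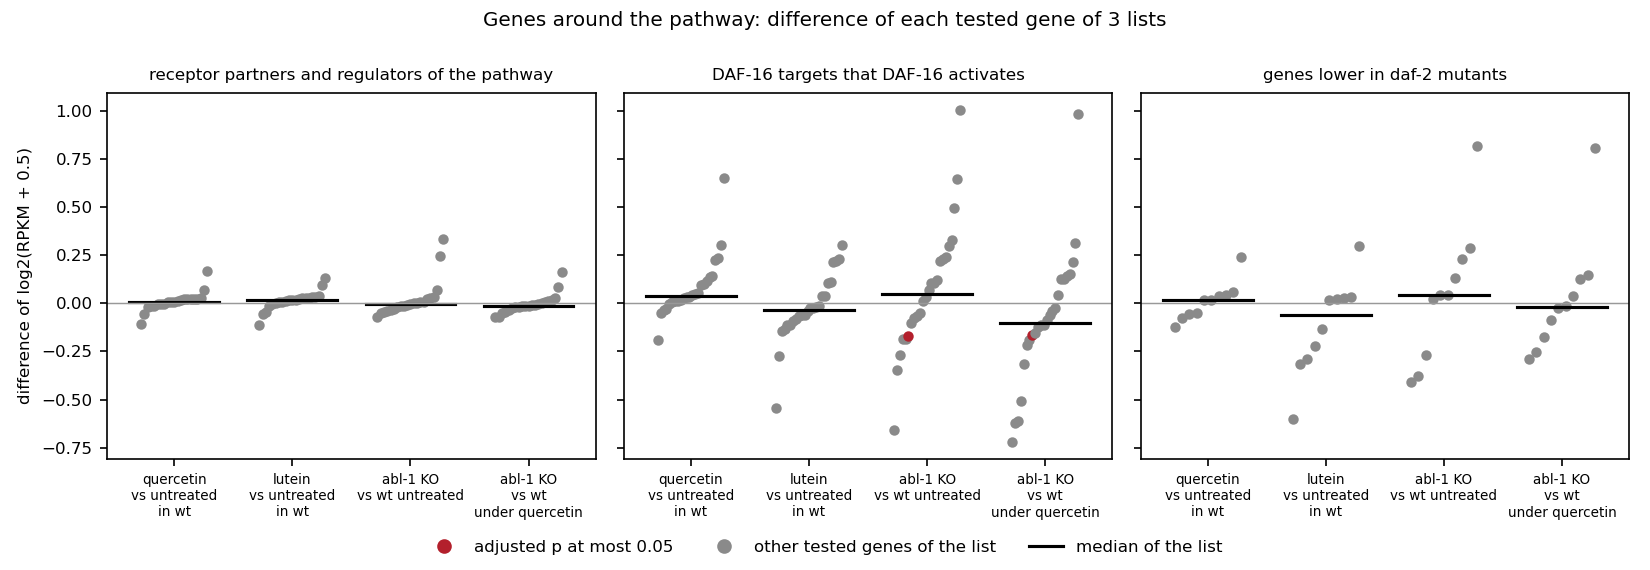
Difference of log2(RPKM + 0.5) of each tested gene of the 3 lists (points, in order of size) in 4 comparisons, with the median of the list (line). The red points are *lea-1* (-0.17 and -0.16), and the other genes did not pass.

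A further list held 14 genes that are known to be lower in *daf-2* mutants, of which 10 were tested and 0 passed. Its medians were 0.02 for quercetin in wt, -0.06 for lutein, 0.04 for untreated *abl-1* KO against wt and -0.02 under quercetin, on the log2 scale. The number at an unadjusted p of at most 0.05 was 3 of 10 in untreated *abl-1* KO against wt and 2 of 10 under quercetin, beside 11.1% and 8.18% of all tested genes. With the replicate number as a block, 2 of the 10 passed in untreated *abl-1* KO against wt, beside 3.65% of all tested genes. These were *ins-7*, higher (limma adjusted p = 0.0085), and *dod-23*, lower (limma adjusted p = 0.0038). *ins-7*, an insulin-like peptide that activates DAF-2, was 0.901, 0.485, 0.527, 0.641 and 0.457 RPKM in untreated wt and 1.94, 2.24, 1.41, 0.933 and 0.9504 RPKM in untreated *abl-1* KO. Under quercetin it was 0.547, 0.503, 0.707, 0.599 and 0.411 RPKM in wt and 1.39, 2.15, 1.82, 0.972 and 0.718 RPKM in *abl-1* KO. *abl-1* KO was above wt in 5 of 5 libraries in both conditions, by a narrow margin in the lowest of them. Groups did not overlap for 2.09% of the tested genes without treatment and for 1.68% under quercetin. The differences of *ins-7* were 0.82 and 0.81 on the log2 scale (SE 0.20 each, limma adjusted p = 0.073 and 0.088, exact permutation p = 0.00794 for each), and they did not pass. With the library set as a term the adjusted p of *ins-7* was 0.0153 and, in a fit that called 1.75% of the tested genes, 0.0171 under quercetin, and over 37 alternatives that tested the gene the untreated difference was called in 5. These levels rest on few reads, an estimated median of 11 per library (5 to 29). *dod-17* lay between 1.03 and 2.90 RPKM in all libraries, with differences between the strains of 0.23 and 0.13 on the log2 scale (SE 0.16 each). On lutein *dod-17* lay between 1.03 and 1.42 RPKM, against 1.46 to 2.06 RPKM in untreated wt. The difference of -0.29 on the log2 scale did not pass (SE 0.17, exact permutation p = 0.0159, the smallest that 4 against 5 libraries can give). How many of all tested genes separated in this way was not counted. The lutein group was weighted towards the first library set, and with the set as a term the difference was -0.25 (SE 0.17).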

How the data were processed

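RNA-Seq of 24 libraries in 5 groups was used as deposited. The authors demultiplexed the reads (bcl2fastq 2.20.0.422), trimmed and mapped them in CLC Genomics Workbench against WBcel235, and deposited RPKM values of 20191 protein-coding genes, in which gene length and library size are corrected. How multi-mapped reads were handled, and with which strand setting, is not given in the sources used here. All 24 columns were used. Gene positions and exon lengths came from Ensembl annotation of the same assembly, release 115, which held 18971 of the gene names.

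Genes with 0.5 RPKM or more in 4 or more libraries were tested (12771 genes). Log2(RPKM + 0.5) of all libraries was fitted as 5 groups with limma 3.58.1 (R 4.3.3) with a variance trend, and its two-sided p values received Benjamini-Hochberg adjustment over all tested genes of a comparison, with 0.05 as the threshold. Differences are on the log2(RPKM + 0.5) scale, which understates changes of low genes. Group means of single genes were in addition set against each other in exact permutation tests (two-sided). The fit was tested on simulated data. Whether replicate numbers pair libraries was judged by the correlation of same-numbered libraries' deviations from their group means, with every pair over 0.1 as the criterion. It was met within wt (0.16 to 0.60) and between the untreated strains (0.14 to 0.58, 5 pairs), and not between the strains under quercetin (-0.61 to 0.50) or within *abl-1* KO (-0.25 to 0.65). The labels name no shared batch. The block was fitted over all 24 libraries. The p values measure the spread between these libraries, which the labels do not tie to separate cultures.

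Library depth was derived from steps among the low values, 47.3% to 56.5% of which lay within 0.1 of whole reads, against 20% for random values. Since so few were whole, no count model was used.

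The 8 genes and the lists were chosen with earlier results of these data known. Named genes were the 8 genes, *abl-1*, *sod-3*, *mtl-1*, *dod-3*, *hsp-12.6*, *ins-7*, *dod-17*, *aap-1*, *ist-1* and *pptr-1*, list genes that passed, and for each of the 8 the 2 genes with the highest r. Alternatives were scaling by medians of ratios or trimmed means, no or a stricter filter (mean of 5 RPKM), pseudocounts of 1 and 0.1, only the libraries compared, no variance trend, a replicate block, each library left out, and wt quercetin replicate 4 with *abl-1* KO untreated replicate 2 left out. The library sets and the limit of 250 RPKM of sperm markers were added after seeing the data. The sets follow the split of the libraries most often found at the widest gap (over 0.5 on the log2 scale) of a gene among splits that divide every group (19 genes, against 18 for the next split, which divides them otherwise). No sequence is printed.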

Additional observations from a re-analysis of the deposited data

Results flagged for a closer look

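In 90 groups of 4 or 5 libraries examined (18 genes in 5 groups), 5 held a library far from the others, by a criterion that chance meets in about 1 in 20 groups. *age-1* was 32.5 RPKM in wt untreated replicate 4, against 29.9 to 30.4 RPKM in the other 4. *pdk-1* was 7.54 RPKM in wt lutein replicate 2, against 8.31 to 8.44 RPKM in the other 3. *dod-3* was 12.603 RPKM in wt quercetin replicate 4, against 8.18 to 8.86 RPKM, and 23.8 RPKM in *abl-1* KO untreated replicate 2, against 6.94 to 9.68 RPKM. *dod-17* was 2.80 RPKM in wt quercetin replicate 4, against 1.40 to 1.76 RPKM. The last 3 come from the libraries that have the most sperm marker RNA of their groups (361 and 660 RPKM), and the part of sperm RNA in them was not tested.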

How the results depend on the processing

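Of 2121 values of the 8 genes under 38 alternatives, 4 passed the threshold, all for *sgk-1* in untreated *abl-1* KO against wt, and 169 had another sign than reported, none of them called and the largest 0.12 in size on the log2 scale. In that comparison 1 of the 8 genes passed with the replicate block and with the library set as a term, and 0 to 1 when a library was left out (1 without *abl-1* KO untreated replicate 4 or 5). Of the DAF-16 targets, 1 passed in at least 1 comparison as reported, 2 with either scaling of the libraries, 9 with the replicate block, 6 with the library set as a term, 0 within the first set, 3 within the second, and 1 to 2 with a library left out (2 without *abl-1* KO untreated replicate 1 or 5 or *abl-1* KO quercetin replicate 1 or 3). Of the genes lower in *daf-2* mutants, 0 passed as reported, 2 with the block, 2 with the set as a term, 1 within the second set and 0 to 1 with a library left out (1 without *abl-1* KO untreated replicate 5 or *abl-1* KO quercetin replicate 2 or 5). These fits also called different numbers of all 12771 tested genes. Between the untreated strains they called 61 as reported, 54 and 52 with the scalings, 466 with the block and 341 with the set as a term. With a library left out the number was 41 to 71, and under quercetin 43 to 73. The list counts move with these totals and are not by themselves a result about the lists. The library set and sperm marker alternatives, and the recounts of these lists, were chosen after seeing the data. The cause was not tested.

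Same-numbered libraries deviated together from their group means within wt and between the untreated strains, but not in the other 2 comparisons of groups (37 of 46 pairs over 0.1 in all, and 15 of 24 libraries most like those of their own number). The replicate block raised the counts of all called genes from 61 to 466 (untreated strains) and from 62 to 252 (under quercetin). With the library set as a term these were 341 and 223, in a fit of the compared libraries alone 39 and 41, within the first set 14 and 20 and within the second 96 and 76, and without the 5 libraries rich in sperm markers 42 and 23. By either scaling the split of called genes moved, from 40 higher and 21 lower to 28 and 26 (medians of ratios) or 27 and 25 (trimmed means) for the untreated strains. The block changed no call of the 8 genes or the lists within wt. Among the named genes, depth limits *ins-7* most (counting SD of 29.6% at its estimated median), then *hsp-12.6* (19.1%) and *mtl-1* (18.4%), and among the 8 genes *akt-2* (6.42%).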
